A study of Drosophila melanogaster with 6 samples.

Results

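The motor genes described here encode kinesins, dyneins and myosins of *Drosophila melanogaster*, together with the dynactin subunits and regulators that work with dynein. A count table row was taken as a member when its gene identifier belonged to a symbol on a list of 41 motor genes, and all 41 had a row among the 17558 genes of the table. The choice was by symbol, with no threshold on a measured value. Of the 41 members, 36 passed the filter on low counts, as did 10378 genes in all.

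The RNA came from heads of 10-day-old male flies that carried *UAS-GFP-Msp300KASH*, which tags the outer nuclear membrane with GFP, and *rh1-GAL4*, which drives the tag in the outer photoreceptors of the eye. Both groups shared this genotype, in a *w* and *ry506* background, and were raised in 12:12 light and dark hours at 25 °C. The 3 post-isolation samples are nuclear RNA from GFP-tagged nuclei bound on antibody beads and washed at 300 mM NaCl, and the 3 pre-isolation samples are total RNA of the head homogenate. Each sample pools many flies. The paper also describes Rh1-Gal4 activity in sensory neurons of the antenna, so not every tagged nucleus need be a photoreceptor. Because the post-isolation samples hold nuclear RNA of 1 tagged population and the pre-isolation samples total RNA of the whole head, a difference between cell types and a difference between nucleus and cytoplasm cannot be told apart. In these bulk samples, fewer cells of a type and less RNA per cell cannot be told apart either.

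Kinesins and dyneins carry cargo along microtubules, most kinesins toward the plus end and dyneins toward the minus end, while myosins act on actin filaments. In a neuron the microtubule motors move vesicles, mitochondria and RNA between cell body and axon terminal. In the fly photoreceptor, actin motors also serve the rhabdomere, the stack of microvilli that holds the rhodopsin, and dynein with dynactin positions the nucleus in the developing eye.

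Between 11693481 and 14522962 reads were counted on genes in the post-isolation samples, against 9999540 to 11232033 in the pre-isolation samples. All 10 photoreceptor markers were higher in the post-isolation samples by a test against no change. Levels are given as CPM, a gene's reads scaled to the same total in every sample, with edgeR's TMM factors applied. The summed level of these markers was 165700, 145900 and 117700 CPM in post-isolation replicates 1 to 3, against 50740, 50180 and 48230 CPM in the pre-isolation samples. Against no change, markers of glia were lower for 6 of 7 tested, of fat body for 4 of 5 and of hemocytes for 3 of 5. That test called 0 markers of these lists higher. Over all tested genes it called 24.4% higher and 26.1% lower. The lists that follow were mixed. Of 8 muscle markers 2 were higher and 5 lower, and of 6 central and optic lobe neuron markers 2 were higher and 3 lower. Of 4 cone and pigment cell markers 2 were higher and 1 lower. Among the higher ones was *w*, which the *UAS* transgene carries. Post-isolation replicate 3 had the lowest photoreceptor sum of its group and differed most in its counts from the other 2 samples, so results that rest on it are also given without it.

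A log2 fold change sets the post-isolation samples over the pre-isolation samples, and is given with its standard error (SE). The first test, edgeR's glmTreat, asks whether a gene changed by more than 2-fold, and the second, edgeR's quasi-likelihood F test, whether it changed at all. Both were adjusted over all 10378 genes with the Benjamini-Hochberg method, and a gene was called at a false discovery rate (FDR) under 0.05.

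The strongest change among the 36 tested members was in a myosin. By glmTreat, *didum*, the gene of myosin V, was the 1 member of 36 called higher (2.78%), against 7.29% of all tested genes. The same test called 0 members lower, against 4.89% of all genes, and DESeq2 also called 0. An unadjusted glmTreat p below 0.05 was found for 2 members, *didum* and the kinesin gene *Klp98A*, both higher in the post-isolation samples, and for 0 lower ones.

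Against no change, 12 members were higher (33.3%, against 24.4% of all genes) and 4 were lower (11.1%, against 26.1% of all genes), which leaves 20 without a call. The higher members were *Kap3*, *Kif3C*, *Klp98A*, *Klp31E*, *Dlic*, *Dhc93AB*, *btv*, *DCTN1-p150*, *didum*, *jar*, *ck* and *zip*. The lower members were *nod*, *ctp*, *robl* and *DCTN2-p50*. The post-isolation samples lay above all pre-isolation samples for 17 members (47.2%, against 28.0% of all genes) and below all of them for 7 members (19.4%, against 30.1%). The median log2 fold change was 0.19 over the 36 members and -0.07 over all tested genes. These counts depend on the scaling: by library size alone, the median of all genes was -0.51 and the split became 3 members higher and 12 lower. Of all 10378 genes, that scaling called 1394 higher and 4326 lower against no change. The share of members called higher was then below that of all genes, as was the share called lower. *Klp98A*, *didum* and *jar* were the members called higher under both scalings.

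**Figure D1:**
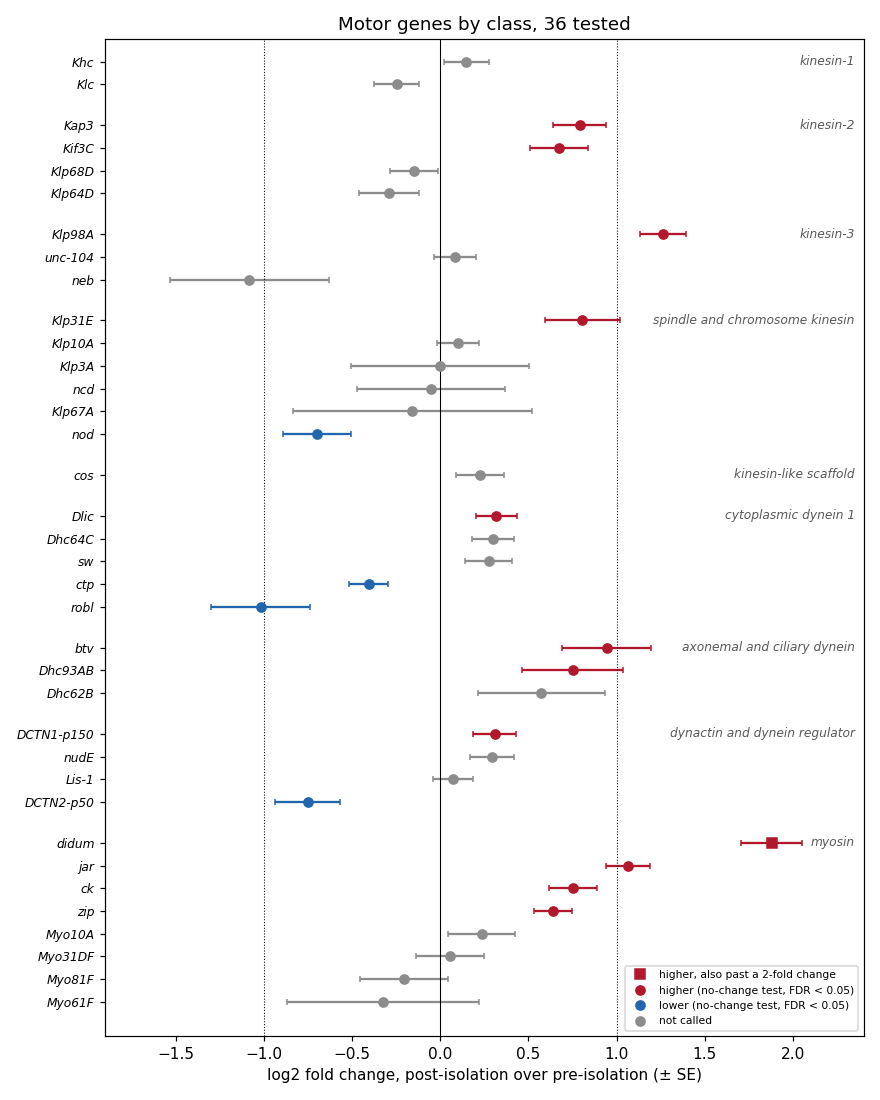
Log2 fold change of each of the 36 tested motor genes, post-isolation over pre-isolation, on the horizontal axis, with bars of 1 SE and genes grouped by motor class. Values ran from -1.08 (neb) to 1.88 (didum, the square), with 12 genes called higher in red and 4 called lower in blue by the test against no change; dotted lines mark a 2-fold change.

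The myosin genes included the largest change of the members, in *didum*. Of the 8 myosin genes, 4 rose (against 24.4% of all genes called higher), 0 fell by edgeR's F test, by DESeq2 or at an unadjusted p below 0.05 (against 26.1% of all genes called lower), and 4 did not pass the test against no change. Their summed level was 2120, 1757 and 1619 CPM in the post-isolation samples, against 850.1, 871.6 and 876.8 CPM in the pre-isolation samples.

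*didum* (FBgn0261397, chromosome arm 2R, 7500147 to 7508625 in the BDGP6 assembly) encodes the myosin V heavy chain, which carries rhodopsin vesicles to the rhabdomere with Rab11 and its partner Rip11. It had 873.8, 637.3 and 489.4 CPM in post-isolation replicates 1 to 3, against 187.6, 178.1 and 178.0 CPM in the pre-isolation samples. The 3 post-isolation samples were all far above the narrow pre-isolation range, and they were spread widely among themselves in the same order as the summed photoreceptor markers, an order that *Calx* and *gl*, highest in replicate 2, did not share. The mean was 666.9 ± 193.9 CPM in the post-isolation samples and 181.2 ± 5.49 CPM in the pre-isolation samples (SD, n = 3 each). The log2 fold change was 1.88 ± 0.17 (SE), a 3.68-fold difference, with an FDR of 0.000239 by glmTreat. Without post-isolation replicate 3 it was 2.11, with an FDR of 2.9e-10. The part of the photoreceptor share in this difference was not tested. Among all 10378 genes, *didum* ranked 582 from the top, within the highest 5.61%.

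*jar* (FBgn0011225, 3R, 24252826 to 24271233) encodes myosin VI, the myosin that walks toward the minus end of actin filaments. It had 608.1, 526.7 and 467.8 CPM in the post-isolation samples, against 245.1, 267.5 and 254.0 CPM in the pre-isolation samples. The groups did not overlap, and replicate 3 was again the lowest of the post-isolation samples. Its log2 fold change was 1.06 ± 0.12, with an FDR of 5.0e-06 against no change. By glmTreat its FDR was 0.52, and 0.0266 without post-isolation replicate 3.

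*ck* (FBgn0000317, 2L, 15044963 to 15057862) encodes myosin VIIA, which is needed for bristle shape and hearing. It had 116.6, 93.13 and 104.8 CPM in the post-isolation samples, against 56.16, 62.92 and 67.61 CPM in the pre-isolation samples. *zip* (FBgn0265434, 2R, 24990570 to 25011965) encodes the heavy chain of nonmuscle myosin II, which contracts actin networks. It had 434.4, 409.5 and 415.8 CPM in the post-isolation samples, against 272.4, 259.5 and 275.9 CPM in the pre-isolation samples. Neither gene had overlapping groups. The log2 fold change was 0.75 ± 0.14 for *ck* (FDR = 0.0003 against no change by edgeR) and 0.64 ± 0.11 for *zip* (FDR = 0.000176). The regulatory light chain of the same motor, *sqh*, went the other way, with a log2 fold change of -0.77 (FDR = 0.000196).

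The other 4 myosins had groups that overlapped. Log2 fold changes were 0.24 ± 0.19 for *Myo10A*, 0.05 ± 0.19 for the class I myosin *Myo31DF*, which sets left-right asymmetry in the embryo, -0.33 ± 0.54 for the class I myosin *Myo61F*, and -0.20 ± 0.25 for *Myo81F*. For *Myo10A*, *Myo31DF* and *Myo61F*, post-isolation replicate 3 was the highest of the 6 samples, at 85.41, 40.79 and 4.65 CPM. Without it the log2 fold changes of *Myo10A*, *Myo31DF* and *Myo61F* were -0.003, -0.11 and -1.16, and none of the 3 was called.

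**Figure D2:**
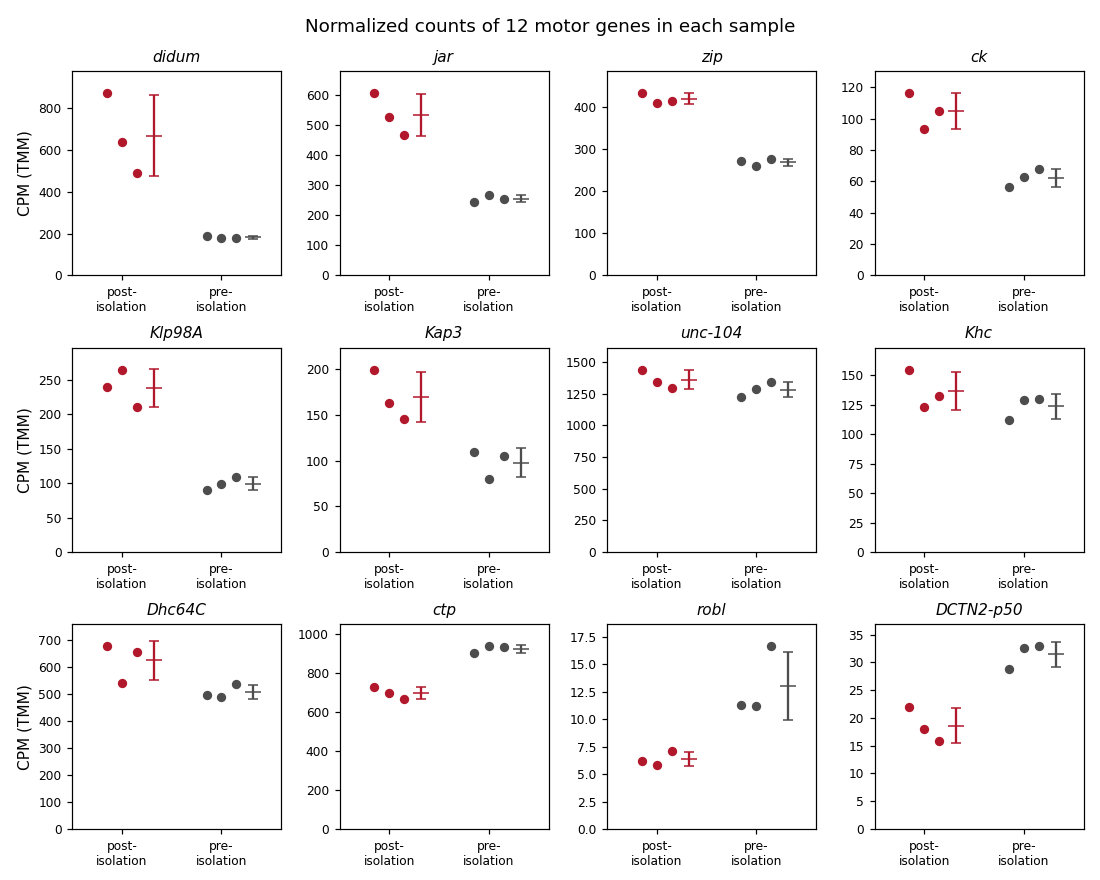
TMM-normalized CPM (vertical axis, from 0 in each panel) of 12 motor genes, with 1 point per sample, replicates 1 to 3 from left to right in each group, and the mean ± SD beside them. The didum points at 489.4 to 873.8 CPM post-isolation stand clear of 178.0 to 187.6 CPM pre-isolation, while unc-104 and Khc overlap between groups.

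Over the 16 kinesin genes tested, the median log2 fold change was 0.04. Against no change 4 were called higher (25.0%, against 24.4% of all genes) and 1 lower (6.25%, against 26.1%).

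Kinesin-1, the main plus-end motor of axonal transport, was at similar summed levels, with 207.8 ± 11.6 CPM in the post-isolation samples and 207.9 ± 4.46 CPM in the pre-isolation samples (SD, n = 3 each). The heavy chain gene *Khc* (FBgn0001308, 2R, 16266960 to 16271971) had 154.6, 123.3 and 131.8 CPM in the post-isolation samples, against 111.5, 128.8 and 129.8 CPM in the pre-isolation samples. The light chain gene *Klc*, whose product binds cargo, had 66.37, 75.68 and 71.72 CPM in the post-isolation samples, against 91.79, 79.26 and 82.38 CPM in the pre-isolation samples. The *Khc* groups overlapped and the *Klc* groups did not, with post-isolation samples lower. Neither was called: the log2 fold change was 0.15 ± 0.13 for *Khc* (FDR = 0.362 by edgeR's test against no change) and -0.25 ± 0.13 for *Klc* (FDR = 0.126).

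Kinesin-2 joins the motor subunits encoded by *Klp64D* and *Klp68D* to the accessory subunit of *Kap3*, and works in cilium assembly and in axons. Its subunits did not move together. *Kap3* (FBgn0028421, X, 11334187 to 11340084) had 199.7, 163.4 and 145.5 CPM in the post-isolation samples, against 109.4, 80.05 and 104.7 CPM in the pre-isolation samples. *Klp64D* had 40.32, 33.06 and 33.12 CPM in the post-isolation samples, against 41.3, 36.34 and 53.01 CPM in the pre-isolation samples. *Klp68D* had 46.68, 49.14 and 48.82 CPM in the post-isolation samples, against 49.88, 56.65 and 54.04 CPM in the pre-isolation samples. The *Kap3* groups were apart with post-isolation samples higher, the *Klp68D* groups were narrowly apart the other way, and those of *Klp64D* overlapped. *Kap3* rose by a log2 fold change of 0.79 ± 0.15 (FDR = 0.000499 against no change). *Klp64D* at -0.29 ± 0.17 (FDR = 0.18) and *Klp68D* at -0.15 ± 0.14 (FDR = 0.38) did not pass. *Kif3C*, which encodes another kinesin-2 motor, rose by 0.67 ± 0.17 (FDR = 0.00341), with 33.25 to 39.29 CPM in the post-isolation samples and 20.57 to 23.9 CPM in the pre-isolation samples.

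Kinesin-3 held the second largest change of the members, but not in its synaptic motor. *unc-104* (FBgn0267002, 2R, 16751503 to 16772671), which moves synaptic vesicle precursors down the axon, had 1439, 1342 and 1294 CPM in the post-isolation samples, against 1222, 1284 and 1338 CPM in the pre-isolation samples. Its groups overlapped, and its log2 fold change was 0.08 ± 0.12 (FDR = 0.58). *Klp98A* (FBgn0004387, 3R, 27547775 to 27559145), a motor of endosomes, had 238.7, 264.7 and 210.5 CPM in the post-isolation samples, against 90.41, 98.14 and 109.0 CPM in the pre-isolation samples. The groups were well apart, and replicate 3 was the lowest post-isolation sample. Its log2 fold change was 1.26 ± 0.13 (FDR = 1.4e-06 against no change). It narrowly missed the 2-fold test (FDR = 0.0585 by glmTreat), which it passed in 2 other fits, with RLE factors in edgeR (FDR = 0.0341) and without post-isolation replicate 3 (FDR = 0.000784). It did not pass in the other fits, among them DESeq2 (FDR = 0.279), the fit without post-isolation replicate 2 (FDR = 0.209) and library size alone (FDR = 1).

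*neb* (FBgn0004374, 2L, 20075757 to 20089698), a kinesin that works with chromosomes, had the lowest log2 fold change of the members at -1.08 ± 0.45, on few reads. It had 2.58, 2.85 and 1.37 CPM in the post-isolation samples, against 3.37, 6.43 and 4.70 CPM in the pre-isolation samples. The groups did not overlap, but the gene was not called (FDR = 0.0585 by edgeR's test against no change). Without post-isolation replicate 3, its lowest sample, the log2 fold change was -0.78. In that fit *Myo61F* at -1.16, *robl* at -1.05 and *nod* at -0.84 were below it.

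Of the 11 spindle and chromosome kinesins, 6 passed the filter. By the test against no change, 1 rose (16.7%, against 24.4% of all genes) and 1 fell (16.7%, against 26.1%). *Klp31E*, which encodes a kinesin of the kinesin-4 family, rose by 0.81 ± 0.21 (FDR = 0.00511), with 21.58 to 28.83 CPM in the post-isolation samples and 12.34 to 16.65 CPM in the pre-isolation samples. *nod*, a chromosome-bound kinesin of female meiosis, had a log2 fold change of -0.70 ± 0.19 (FDR = 0.00736), with 19.94 to 34.03 CPM in the post-isolation samples and 37.85 to 48.66 CPM in the pre-isolation samples. The groups of these called genes did not overlap. *Klp10A*, a microtubule-depolymerizing kinesin, was at 136.0 to 145.8 CPM in the post-isolation samples and 119.7 to 139.6 CPM in the pre-isolation samples, and did not pass (0.10 ± 0.12). The spindle motors *Klp3A*, *ncd* and *Klp67A* were below 6 CPM in every sample, with log2 fold changes of 0.00, -0.05 and -0.16 and SEs of 0.42 or more.

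The other 5 members failed the filter, all of them kinesins of cell division. *Klp59D* and *sub* had no count in any sample. *Klp59C* was at 0 in the 3 post-isolation samples and had 3, 0 and 0 reads in the pre-isolation samples. *Klp61F* had 7, 0 and 1 reads in the post-isolation samples, against 0, 0 and 5 in the pre-isolation samples. These 4 genes were at or near the limit of detection in both groups. *pav*, a motor of cytokinesis, had 1, 15 and 21 reads in the post-isolation samples, against 3, 1 and 0 in the pre-isolation samples. A count of 0 allows up to 3 counts, or 0.23 to 0.276 CPM in these samples. *pav* exceeded that limit in post-isolation replicates 2 and 3 alone. Markers of dividing cells were likewise low, with a summed level of 11.35 to 18.43 CPM in the post-isolation samples and 9.50 to 22.79 CPM in the pre-isolation samples, and 0 of 6 tested were called by the F test, by DESeq2 or at an unadjusted p below 0.05. *cos*, a kinesin-like protein that scaffolds Hedgehog signaling, was at 54.75 to 56.82 CPM in the post-isolation samples and 43.52 to 49.85 CPM in the pre-isolation samples, and was not called (0.22 ± 0.14).

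Cytoplasmic dynein 1, the minus-end motor of axons, split by subunit. *Dhc64C* (FBgn0261797, 3L, 4807368 to 4825687), the heavy chain with the motor domain, had 676.9, 542.4 and 656.3 CPM in the post-isolation samples, against 497.5, 489.6 and 537.4 CPM in the pre-isolation samples. The light intermediate chain gene *Dlic* had 236.1, 206.4 and 206.2 CPM in the post-isolation samples, against 164.6, 187.9 and 167.9 CPM in the pre-isolation samples. The intermediate chain gene *sw* had 87.25, 101.9 and 79.2 CPM in the post-isolation samples, against 68.8, 75.21 and 77.94 CPM in the pre-isolation samples. In all 3 genes the post-isolation samples lay above the pre-isolation samples, by small margins. Log2 fold changes were 0.30 ± 0.12 for *Dhc64C* (FDR = 0.0513), 0.32 ± 0.12 for *Dlic* (FDR = 0.0353) and 0.27 ± 0.13 for *sw* (FDR = 0.105), so *Dlic* alone of these 3 was called by edgeR's F test. These calls lie near the threshold: DESeq2 also called *Dhc64C* (FDR = 0.0129), and *Dlic* lost its call in 6 of 15 other fits, such as that with no filter on CPM (FDR = 0.0635) and each fit without 1 of the pre-isolation samples (FDR = 0.0516 to 0.135). Without post-isolation replicate 3 all 3 genes were called by the F test (FDR = 0.00539 for *Dhc64C*, 0.00127 for *Dlic* and 0.00562 for *sw*). Of the 15 other fits, 5 called *Dhc64C* and 1 called *sw*. *sw* has near-identical copies in the fly genome, and its level is uncertain because reads that fit several places in the genome were left out of the counts.

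The light chain genes *ctp* and *robl* fell. *ctp* (FBgn0011760, X, 4687800 to 4702034), whose LC8 light chain also joins many complexes without dynein, had 729.3, 696.8 and 663.8 CPM in the post-isolation samples, against 900.5, 935.9 and 934.1 CPM in the pre-isolation samples. *robl* (FBgn0024196, 2R, 17456472 to 17457129), the roadblock light chain gene, had 6.19, 5.88 and 7.12 CPM in the post-isolation samples, against 11.26, 11.19 and 16.65 CPM in the pre-isolation samples. The groups did not overlap for either gene, and post-isolation samples were the lower ones. The log2 fold change was -0.41 ± 0.11 for *ctp* (FDR = 0.00689 against no change) and -1.02 ± 0.28 for *robl* (FDR = 0.00731). Another dynein light chain gene, *Dlc90F*, was called lower near the threshold, at -0.51 ± 0.21 (FDR = 0.0487, and 0.0426 with the replicate block). Its groups overlapped, at 15.69 to 22.18 CPM in the post-isolation samples and 21.26 to 29.73 CPM in the pre-isolation samples. Of 21 motor subunits tested outside the members, edgeR's F test called 2 lower (9.52%, against 26.1% of all genes). It called 8 higher (38.1%, against 24.4% of all genes). DESeq2 called 1 lower and 8 higher.

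Dynactin, which couples dynein to cargo, split by subunit as well. *DCTN1-p150*, the subunit known as Glued that binds microtubules and dynein, had 88.29, 92.31 and 90.88 CPM in the post-isolation samples, against 70.72, 70.29 and 78.2 CPM in the pre-isolation samples. *DCTN2-p50*, the dynamitin subunit, had 22.01, 18.09 and 15.79 CPM in the post-isolation samples, against 28.88, 32.61 and 32.87 CPM in the pre-isolation samples. The groups were apart in both genes, in opposite directions. The log2 fold change was 0.31 ± 0.12 for *DCTN1-p150* (FDR = 0.0475, and 0.066 with the replicate block; the call was lost in 10 of 15 other fits) and -0.75 ± 0.18 for *DCTN2-p50* (FDR = 0.00323). *Lis-1*, a regulator of dynein in nuclear migration, had 177.6, 155.0 and 158.7 CPM in the post-isolation samples, against 155.1, 155.5 and 156.6 CPM in the pre-isolation samples, with a log2 fold change of 0.07 ± 0.11. Its partner gene *nudE* had a log2 fold change of 0.29 ± 0.12 (FDR = 0.0648). Neither was called by edgeR's F test, while DESeq2 called *nudE* (FDR = 0.0365), as did the edgeR fit without post-isolation replicate 3 (FDR = 0.00778).

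Among the members, the 3 axonemal and ciliary dynein heavy chain genes were low in all samples. The dynein heavy chain gene *Dhc98D*, which is not a member, was far higher in the post-isolation samples and is given below. *btv*, which encodes the dynein-2 motor of retrograde transport in cilia, had 16.85, 17.63 and 12.04 CPM in the post-isolation samples, against 7.43, 7.54 and 9.31 CPM in the pre-isolation samples. *Dhc93AB*, an axonemal dynein gene, had 8.17, 11.85 and 14.14 CPM in the post-isolation samples, against 7.05, 6.98 and 6.15 CPM in the pre-isolation samples. *Dhc62B*, another axonemal gene, had 5.59, 5.14 and 5.75 CPM in the post-isolation samples, against 4.14, 4.13 and 2.73 CPM in the pre-isolation samples. Post-isolation samples lay above pre-isolation samples in all 3 genes. *btv* rose by a log2 fold change of 0.94 ± 0.25 (FDR = 0.00617 against no change). *Dhc93AB* at 0.75 ± 0.29 was called without the replicate block (FDR = 0.0418) and not with it (FDR = 0.054), and *Dhc62B* at 0.57 ± 0.36 was not called (FDR = 0.202). *Dhc93AB* also lost its call without post-isolation replicate 3 (FDR = 0.11). Of 12 tested markers of mechanosensory and ciliated neurons, the F test called *nompA*, *rempA*, *fd3F* and *Rfx* higher. These 4 are 33.3%, against 24.4% of all genes. It called 0 lower (against 26.1% of all genes), and 0 were lower by DESeq2 or at an unadjusted p below 0.05. With the replicate block *rempA* was not called (FDR = 0.0672) and *Oseg4* was (FDR = 0.0387). The log2 fold change was above 0 for 9 of the 12 and below 0 for 3, *Oseg5* (-1.10), *Oseg6* (-0.10) and *nompC* (-0.06). The summed level of the list was 179.7 to 186.2 CPM in the post-isolation samples, against 98.07 to 128.6 CPM in the pre-isolation samples. *Rfx* alone had a mean of 106.5 CPM in the post-isolation samples and 61.49 CPM in the pre-isolation samples. The channel gene *nan* failed the filter, with 0 reads in all post-isolation samples and 0 to 5 reads in the pre-isolation samples. The part of these cells in the ciliary dynein values was not tested.

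Ratios between subunits of one complex, or between the regulator gene *Lis-1* and *Dhc64C*, need no scaling between samples. Of these, 8 were compared, as log2 ratios of counts. With 3 samples against 3, the smallest p an exact two-sided permutation test can give is 0.1, so none could pass 0.05, and the adjusted value for the 5 ratios that reached it was 0.16. *Kap3* over *Klp64D* was 2.31, 2.30 and 2.13 in the post-isolation samples, against 1.41, 1.14 and 0.98 in the pre-isolation samples, a difference of 1.07 (exact p = 0.1). *DCTN2-p50* over *DCTN1-p150* was -2.002, -2.348 and -2.522 in the post-isolation samples, against -1.29, -1.11 and -1.25 in the pre-isolation samples, a difference of -1.08 (exact p = 0.1). For *robl* over *Dhc64C*, the ratio was -6.76, -6.52 and -6.52 in the post-isolation samples, against -5.46, -5.45 and -5.01 in the pre-isolation samples, a difference of -1.29 (exact p = 0.1). In these 3 ratios the groups were separated by more than the spread within either group. The groups also did not overlap for *Klc* over *Khc*, at -0.39, and *Lis-1* over *Dhc64C*, at -0.22 (exact p = 0.1 each), where the difference was smaller. Groups overlapped for *Klp68D* over *Klp64D*, which differed by 0.13 (exact p = 0.7), for *sw* over *Dhc64C*, by -0.03 (exact p = 1), and for *Dlic* over *Dhc64C*, by 0.02 (exact p = 0.9).

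**Figure D3:**
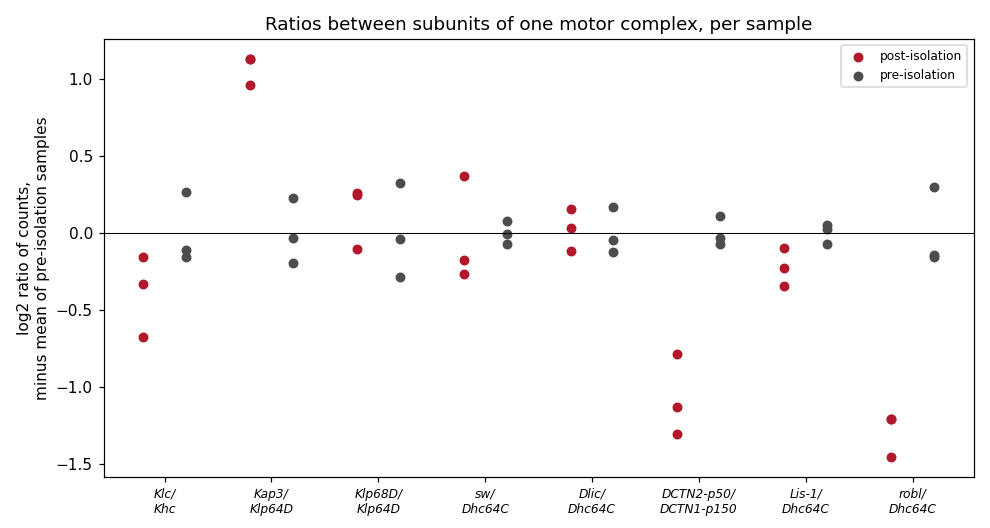
Log2 ratio of the counts of paired genes in each sample (vertical axis), with the mean of the pre-isolation samples set to 0. The pairs are subunits of one complex, except that Lis-1 is a regulator. Post-isolation points are to the left of pre-isolation points. Post-isolation samples lie apart for Kap3/Klp64D (mean difference 1.07), DCTN2-p50/DCTN1-p150 (-1.08) and robl/Dhc64C (-1.29), and mix with pre-isolation samples for Klp68D/Klp64D, sw/Dhc64C and Dlic/Dhc64C.

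To compare genes with each other, levels were divided by annotated exon length. *unc-104* was the highest in the post-isolation samples, at 168.4 ± 9.11 CPM per kb, and the second highest in the pre-isolation samples, at 158.9 ± 7.19 CPM per kb (SD, n = 3 each). *ctp* took place 2 in the post-isolation samples and place 1 in the pre-isolation samples. *didum* was the third highest in the post-isolation samples, at 102.6 ± 29.8 CPM per kb, but place 11 in the pre-isolation samples, at 27.87 ± 0.84 CPM per kb. In the post-isolation samples *didum* and *jar*, at 94.7 ± 12.5 CPM per kb, did not differ beyond their spread, nor did *zip* and *Dlic*, at 57.98 ± 1.78 and 56.74 ± 4.51 CPM per kb. *Klp98A* took place 8 in the post-isolation samples and place 18 in the pre-isolation samples. The lowest places in the post-isolation samples, at 1.46 CPM per kb or less, were those of *ncd*, *btv*, *Dhc93AB*, *Klp3A*, *neb*, *Myo61F*, *Dhc62B* and *Klp67A*, genes of spindle motors and of axonemal and ciliary dynein for the most part.

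**Figure D4:**
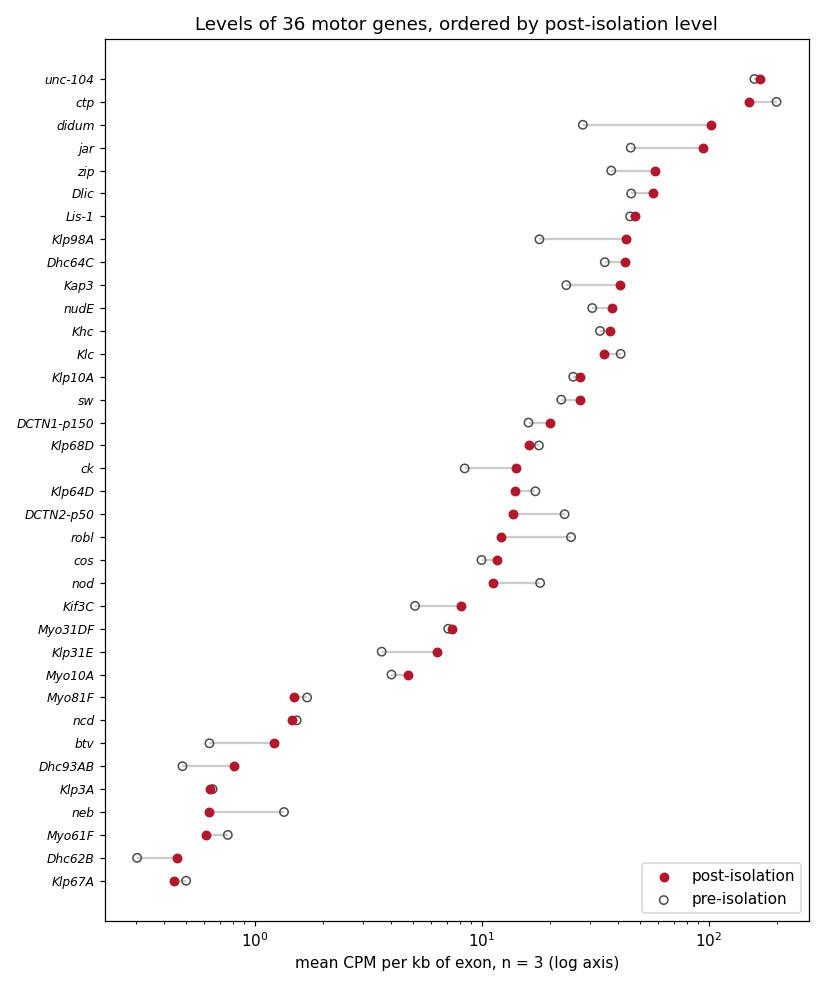
Mean CPM per kb of annotated exon (horizontal log axis, n = 3) of the 36 tested motor genes, with filled points for post-isolation and open points for pre-isolation samples and genes ordered by the post-isolation level. unc-104 and ctp lead in both groups, while didum moves to place 3 post-isolation, against place 11 pre-isolation.

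Among the members, longer genes tended to have the higher fold changes. Spearman's rho between log2 fold change and annotated exon length was 0.602 over the 36 members and 0.181 over 10170 genes with a length. The members are not independent replicates and share the same 6 libraries. Exon length also varies among subunits, with 14597 bases in the heavy chain gene *Dhc64C* and 527 in the light chain gene *robl*. The lower members *robl*, *DCTN2-p50* and *nod* had 527, 1358 and 2449 bases of annotated exon. The lower member *ctp*, also a light chain gene, had 4645, more than the higher members *Dlic*, *Klp31E*, *Kap3*, *Kif3C* and *DCTN1-p150*. The higher members *didum*, *jar* and *btv* had 6502, 5641 and 12821 bases. With length of the whole gene, rho was 0.405 over the members and 0.119 over all genes. The part of length in these differences was not tested.

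**Figure D5:**
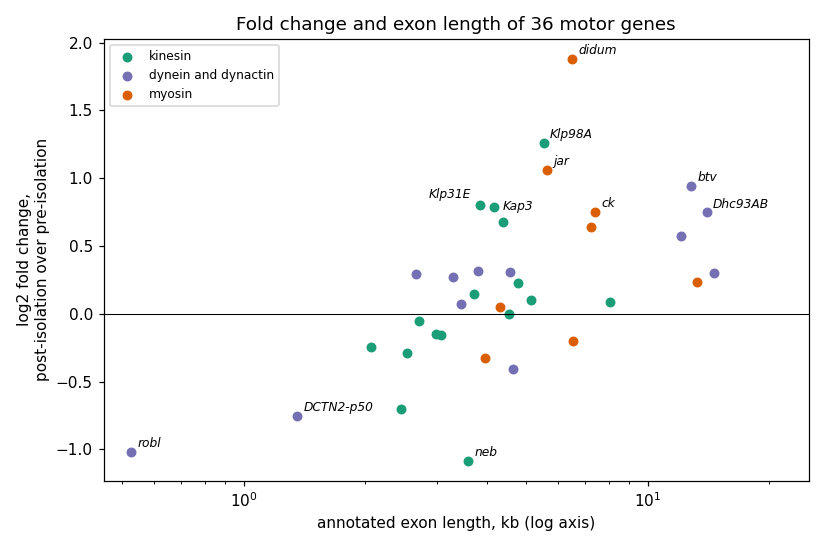
Log2 fold change, post-isolation over pre-isolation (vertical axis), against annotated exon length in kb (horizontal log axis), with 1 point for each of the 36 tested motor genes coloured by family. Short genes such as robl (-1.02) and DCTN2-p50 (-0.75) lie low on the left and didum (1.88) high on the right; rho over the members is 0.602.

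Other genes of motor transport were read from a list of 48 further subunits, adaptors and regulators in the count table, of which 41 were tested. By glmTreat 6 were higher (*Dhc98D*, *Myo28B1*, *jvl*, *ninaC*, *futsch* and *klar*; 14.6%, against 7.29% of all genes) and 0 lower (against 4.89%). Against no change 18 were higher (43.9%, against 24.4% of all genes) and 6 lower (14.6%, against 26.1%). DESeq2 called 5 higher and 0 lower against a 2-fold change, and 8 genes, all higher, had an unadjusted glmTreat p below 0.05. With the replicate block, *klar* was no longer called by glmTreat (FDR = 0.0596).

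The largest of these was the dynein heavy chain gene *Dhc98D*, with 158.4, 142.1 and 91.52 CPM in the post-isolation samples, against 10.96, 9.20 and 14.34 CPM in the pre-isolation samples (log2 fold change 3.51 ± 0.22, FDR = 3.8e-07 by glmTreat). The myosin heavy chain gene *Myo28B1* had 74.19, 78.25 and 52.38 CPM in the post-isolation samples, against 8.12, 10.71 and 13.32 CPM in the pre-isolation samples (2.68 ± 0.21). *ninaC*, the class III myosin of the rhabdomere and also one of the photoreceptor markers, had 9203, 7507 and 5702 CPM in the post-isolation samples, against 2361, 2262 and 2352 CPM in the pre-isolation samples (1.68 ± 0.17). All 3 genes had post-isolation samples far above the pre-isolation samples, with replicate 3 the lowest of its group.

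The partners of myosin V in rhodopsin transport moved in opposite directions. *Rip11* had 363.8, 425.8 and 329.8 CPM in the post-isolation samples, against 196.0, 232.5 and 183.7 CPM in the pre-isolation samples (log2 fold change 0.87 ± 0.13, FDR = 6.9e-05 against no change). *Rab11*, a small GTPase used by membrane recycling in most cells, had 119.9, 112.0 and 122.5 CPM in the post-isolation samples, against 171.9, 191.8 and 177.6 CPM in the pre-isolation samples (-0.61 ± 0.12, FDR = 0.000454). *Rip11* was higher and *Rab11* lower, in both cases without overlap between the groups. The kinesin adaptor gene *milt*, which links mitochondria to kinesin-1, rose by 0.38 (FDR = 0.00914), while its partner *Miro* at 0.22 was not called (FDR = 0.193).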

How the data were processed

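RNA-seq counts of 6 samples were used, 3 post-isolation and 3 pre-isolation. The authors trimmed the reads with Trimmomatic, mapped them to BDGP6 with TopHat, and counted them by strand with HTSeq, and the deposited count table holds raw counts per gene with no normalization. A filtered version of the count table served as an alternative, and the authors' CPM table of the same genes was not used. Reads mapping to more than 1 place were not counted and made up 86.0 to 88.7% of alignments in the post-isolation samples and 91.1 to 91.7% in the pre-isolation samples.

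CPM was computed over gene counts, and a gene was kept where CPM exceeded 1 in 3 or more samples. Scaling used the TMM factors of edgeR (version 4.0.16, run in R 4.3.3). The tests used glmQLFit, with glmTreat against a fold change of 2 and with the quasi-likelihood F test, and adjusted by Benjamini-Hochberg. The SE comes from the F statistic. The procedure was tested on simulated data. Symbols and positions came from a later Ensembl annotation of BDGP6, which held 98.3% of genes; *zip* was matched through a supplementary table of the paper. Exons of *unc-104*, *Dhc64C* and *nudE* share 2.08, 0.267 and 4.32% of their bases with another gene on the same strand.

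The members and gene lists were chosen with earlier results of these data known. Values per sample are given for members past either test with an absolute log2 fold change above 1, the 3 highest and 3 lowest, and core subunits; *ctp*, *btv*, *Dhc93AB*, *Dhc62B* and the genes of the last paragraphs were added after their values were seen. Alternatives were a replicate block, DESeq2 1.42.0, RLE factors, library size alone, other filters, the authors' filtered counts, leaving out mitochondrial and ribosomal protein genes, leaving out each sample, another pseudocount for ratios, and the legacy quasi-likelihood fit, added after seeing the data. The sample titles number the replicates, and the paper sets post-isolation samples beside their respective pre-isolation samples. Same-numbered samples were taken as pairs in the replicate block, while the main fit had no block. Deviations of same-numbered samples from their group means correlated at 0.0093, 0.0476 and -0.0134 across genes. Intervals cover the spread between these samples.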

Additional observations from a re-analysis of the deposited data

How the results depend on the processing

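Of the 16 members called against no change, 7 kept the call in every one of the 15 other fits that tested them and 13 did so in every fit but library size alone. With the replicate block the counts were 1 higher and 0 lower by glmTreat and 10 higher and 4 lower against no change, and the block changed no member's call other than those of *Dhc93AB* and *DCTN1-p150*. By glmTreat, 2 members were higher with RLE factors (*didum* and *Klp98A*), and 1 to 3 with 1 sample left out, the 3 being *didum*, *Klp98A* and *jar* without post-isolation replicate 3. With library size alone, 3 were higher and 12 lower against no change. It also turned the sign of *Khc* (-0.30), *unc-104* (-0.36), *Klp10A* (-0.34), *cos* (-0.22), *Dhc64C* (-0.14), *sw* (-0.18), *Dlic* (-0.13), *DCTN1-p150* (-0.14), *Lis-1* (-0.37), *nudE* (-0.16), *Myo10A* (-0.19) and *Myo31DF* (-0.38). *Klp3A*, near 0, was 0.00337 with the replicate block, 0.022 with DESeq2, 0.0516 with RLE factors and 0.00934 with at least 10 counts in every sample, and *ncd* was 0.00107 with DESeq2 and 0.00171 with RLE factors. Samples left out in turn gave 9 to 14 higher and 4 to 5 lower members against no change, and log2 fold changes from -0.61 to 0.51 for *Klp67A*, -0.31 to 0.51 for *Klp3A*, -0.34 to 0.33 for *ncd*, -0.00271 to 0.40 for *Myo10A*, -0.11 to 0.17 for *Myo31DF* and -1.16 to 0.0605 for *Myo61F*. The ratios ranged from -0.00909 to 0.30 for *Klp68D* over *Klp64D*, -0.22 to 0.10 for *sw* over *Dhc64C* and -0.0431 to 0.11 for *Dlic* over *Dhc64C*, and the other 5 kept their direction. Over all genes, library size alone called 451 higher and 1253 lower by glmTreat and 1394 and 4326 against no change. Against a 2-fold change, the authors' filtered counts called 480 higher and DESeq2 278 lower. The filtered counts hold fewer genes than the main fit, and the share of them called higher was larger than in the main fit. The cause of the other changes was not tested. Depth limits the spindle motors and *neb*, at under 7 CPM.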
